A study of Mus musculus with 14 samples.

Results

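The interferon response genes are a list of 38 genes that cells switch on after exposure to interferons, followed here in subcutaneous white adipose tissue (the fat layer under the skin) of mice that did or did not run. They were listed by symbol as known targets of interferon, and the list, with the comparison that leaves out sedentary array 5, was drawn up with earlier results of these data known. Of the 38 genes, 35 had a probe set (a group of short probes on the array that reports 1 transcript) assigned to that symbol alone. Isg15, Oas1g and Ifi44 had none and were not analysed here. After a filter on low signal, 34 of the 38 entered the test, out of 12944 genes tested on these arrays. The member that did not pass was Mx2, whose signals ran from 89.9 to 192.3 on the sedentary arrays and from 54.5 to 320.3 on the exercised arrays. Where a gene had several probe sets, the one with the highest mean over the 14 arrays stood for it. The 34 tested genes were split into 27 genes best known as targets of type I interferon and 7 best known as targets of interferon gamma (Irf1, Gbp2, Gbp3, Igtp, Irgm1, Iigp1 and Tap1), although many of them answer to both.

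RNA came from male C57BL/6 mice, an inbred strain, aged 12 weeks. In 7 samples the animals had spent 11 days in wheel cages (exercised), and in 7 they were sedentary controls. No genotype or drug is named for either group, and no label says that each array is a separate mouse. The p-values therefore cover the variation among these 14 samples, and part of it may be technical. The 7 adipocyte markers measured, among them Adipoq, Fabp4 and Pparg, were above the filter, with summed signals of 171300 to 272500 on the sedentary arrays and 227000 to 299200 on the exercised arrays. Sedentary array 5 stood apart from the other 13 on the genes described here, and the comparison is given with and without it. In whole tissue, fewer cells of a type and less RNA per cell cannot be told apart.

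Interferons are secreted proteins that warn cells of viruses and other microbes. Type I interferons act through the receptor Ifnar1 and Ifnar2 and a complex containing Stat2 and Irf9 that binds a DNA element called ISRE, whereas interferon gamma, made mainly by T and natural killer cells, acts through Ifngr1 and Ifngr2 and a DNA element called GAS. In adipose tissue, resident macrophages, other immune cells, endothelium and adipocytes can all answer to them.

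The element that many of these genes share is visible in their promoters, and the stretches printed here belong to the members with an ISRE and the smallest p in the comparison. Promoter sequences came from RefSeq on the mouse build GRCm38.p6, and the 250 bases before each gene's start were searched. The ISRE core searched was GAAA, any 2 bases (NN) and GAAA on either strand, which reads TTTC, NN and TTTC on the printed strand when the match lies on the other one. The GAS element searched was TTCNNNGAA, which reads the same on both strands. Of the 34 tested members, 24 had a promoter in the table, and 11 of these held the ISRE core (45.8%). That core stood in 978 of all 32851 promoter windows (2.98%) and in 336 of the 10394 tested genes with a window (3.23%). By target type, 7 of 18 type I targets and 4 of 6 interferon gamma targets held it. GAS was found in 6 of the 24 members and in 760 of the 10394 tested genes (7.31%). A match describes letters in this window and was not tested as a binding site. In the sequences, which run 5′ to 3′ on the gene's own strand, capitals mark the ISRE core, overlapping matches are written as 1 run, and up to 30 bases are shown on each side within the window. Those of Ifit3 (chr19:34583343-34583446, plus strand), Ifit1 (chr19:34640755-34640843, plus strand), Stat2 (chr10:128270248-128270315, plus strand), Bst2 (chr8:71537557-71537632, minus strand) and Rsad2 (chr12:26456533-26456602, minus strand) are from type I targets. So are those of Oas1a (chr5:120907526-120907575, minus strand) and Oas3 (chr5:120777695-120777764, minus strand). The interferon gamma targets are Gbp3 (chr3:142559969-142560043, plus strand), Gbp2 (chr3:142620574-142620643, plus strand) and Irgm1 (chr11:48871421-48871480, minus strand).
Ifit3: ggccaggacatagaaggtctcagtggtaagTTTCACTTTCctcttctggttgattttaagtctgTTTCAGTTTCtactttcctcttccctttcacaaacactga
Ifit1: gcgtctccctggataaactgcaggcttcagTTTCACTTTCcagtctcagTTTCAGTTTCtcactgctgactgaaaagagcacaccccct
Stat2: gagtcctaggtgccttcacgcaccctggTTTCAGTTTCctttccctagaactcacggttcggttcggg
Bst2: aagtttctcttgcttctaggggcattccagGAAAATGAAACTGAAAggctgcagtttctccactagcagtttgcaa
Rsad2: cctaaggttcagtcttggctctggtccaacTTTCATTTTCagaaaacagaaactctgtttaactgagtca
Oas1a: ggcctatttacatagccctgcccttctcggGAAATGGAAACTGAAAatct
Oas3: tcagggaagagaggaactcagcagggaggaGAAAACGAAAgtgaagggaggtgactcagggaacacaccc
Gbp3: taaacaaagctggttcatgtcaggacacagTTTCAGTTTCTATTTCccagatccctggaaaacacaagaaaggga
Gbp2: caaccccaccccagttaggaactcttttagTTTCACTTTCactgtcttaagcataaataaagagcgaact
Irgm1: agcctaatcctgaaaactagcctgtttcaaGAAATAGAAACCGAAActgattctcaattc
In Ifit3 and Ifit1 the core stands at 2 separate places, and the first begins 156 and 104 bases before the start. In Bst2, Oas1a, Gbp3 and Irgm1 it is written as overlapping matches, and in Oas1a, Irgm1 and Gbp3 these begin 20, 30 and 45 bases before the start. The 11 members with the core had a median log2 difference of -0.50 between exercised and sedentary arrays (range -0.68 to -0.12), and the 13 members with a window and no core had -0.37 (range -0.70 to -0.16). The medians were -0.28 and -0.29 without sedentary array 5. The ranges overlapped, and the difference between these sets of genes was not tested.

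The comparison of 7 exercised with 7 sedentary arrays asked which transcripts of this fat depot differed after voluntary running. Most interferon response genes lay lower on the exercised arrays, by small amounts, and 1 of them passed the test. That gene was Ifi35, an interferon-induced protein that binds its partner Nmi, and it fell 1.29-fold. The median log2 difference over the 34 tested members was -0.38 (range -0.73 to 0.12), beside -0.03 over all 12944 genes tested. Differences were below 0 for 33 of the 34 members, beside 55.0% of all genes. All log2 differences and folds are on the scale of log2(signal + 46.7), so they understate changes of weakly expressed genes.

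With limma and Benjamini-Hochberg adjustment over all genes, 1 of 34 members was lower and 0 were higher at an adjusted p under 0.05, beside 1.53% of all genes lower and 4.0% higher (5.53% in either direction). With arrays centred on their medians the split over all genes was 86 lower and 547 higher, in place of 198 and 518. At an unadjusted p under 0.05, 14 members were lower (41.2%) and 0 were higher, beside 10.5% and 11.3% of all genes. Exercised and sedentary signals overlapped for all 34 members, whereas all exercised arrays lay below all sedentary arrays for 0.734% of all genes. For 12 members each of the 7 exercised arrays lay below the sedentary median, and for 24 at least 6 did. The shares of all genes with these patterns were not counted, so whether they are unusual cannot be told. Of 22 other probe sets of members, 17 passed the filter. All 17 had the sign of the chosen probe set, 5 of them at an unadjusted p under 0.05 in limma.

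**Figure D1:**
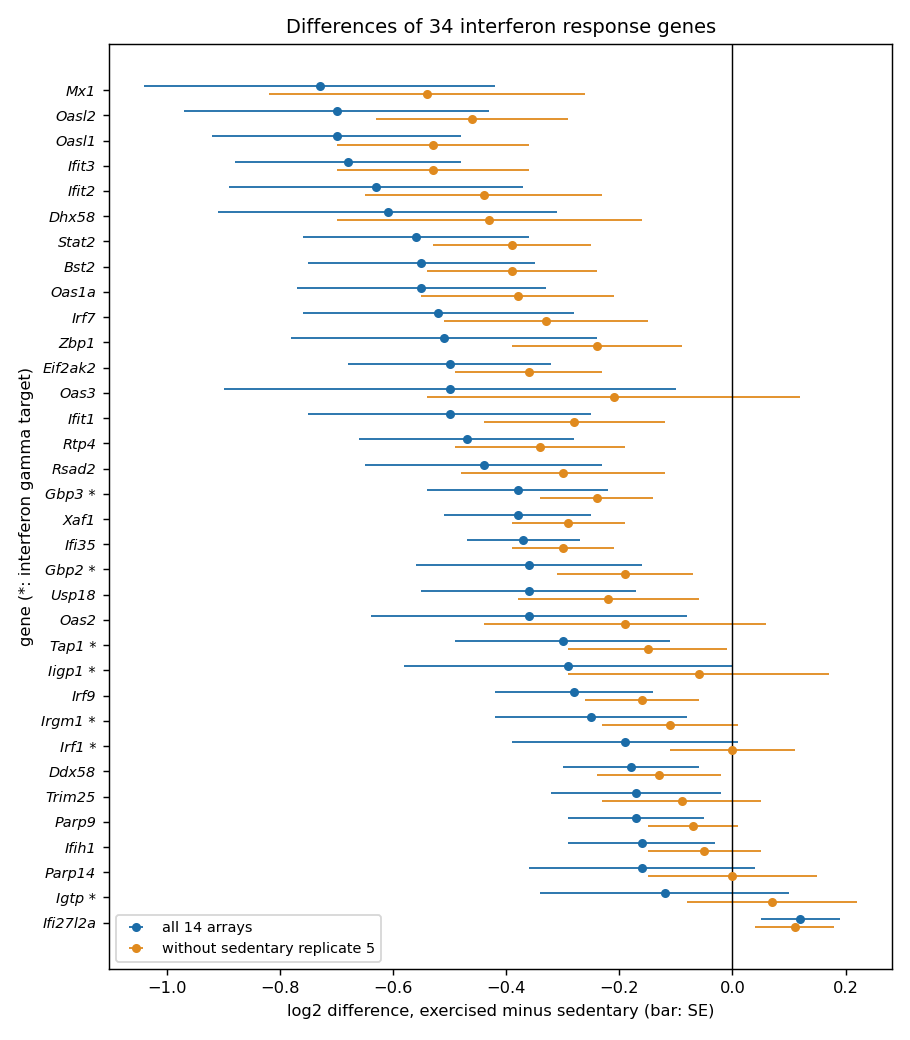
Log2 difference, exercised minus sedentary, on the horizontal axis for each of the 34 tested interferon response genes (vertical axis, ordered by difference), with bars of 1 standard error, from all 14 arrays (blue) and without sedentary replicate 5 (orange); asterisks mark interferon gamma targets. From all arrays 33 of 34 points lie below 0, and every point lies closer to 0 without that replicate.

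When sedentary array 5 was left out, 0 of 34 members passed in limma, each read from its chosen probe set. The smallest adjusted p was 0.0542, again for Ifi35. Of all genes 1.71% were then lower, 3.84% higher and 5.55% called in either direction at the adjusted threshold. At an unadjusted p under 0.05, 11 members were still lower (32.4%, beside 10.2% of all genes), and these 11 were all among the 14 from the full set of arrays. Differences below 0 were counted for 31 members, beside 57.0% of all genes, and the median difference was -0.24, beside -0.03. Signals again overlapped between the groups for every member, beside 0.966% of all genes with every exercised array below every sedentary one. All 34 differences were smaller in size without this array, and all 34 standard errors were smaller too. Sedentary array 5 was the highest array for 33 members, so leaving it out had to lower their sedentary means. Signs turned for Irf1 and Igtp, both interferon gamma targets.

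Among the sensors, 0 of 4 members passed the test, and all 4 had lower means on the exercised arrays. Ifih1 and Ddx58, which recognise viral RNA in the cytosol, had the smallest differences of the 4, at -0.16 and -0.18 (-0.05 and -0.13 without sedentary array 5). Dhx58, which modulates both, gave signals of 343.7, 948.9 and 2120.5 (lowest, median and highest) on the sedentary arrays and 393.0, 560.4 and 952.8 on the exercised arrays. Its difference was -0.61 ± 0.30 (SE; n = 7 and 7; limma adjusted p = 0.25), and -0.43 without sedentary array 5. Another probe set of Dhx58 above the filter, at a mean signal of 732.7 beside 873.8, gave -0.03 ± 0.13 with all arrays. Zbp1, a sensor of Z-form nucleic acids, gave 930.7, 1574.8 and 5506.9 on the sedentary arrays and 1061.2, 1354.4 and 1421.3 on the exercised arrays. Its highest value, on sedentary array 5, was 3.62-fold the median of the other 6 sedentary arrays, and the difference of -0.51 became -0.24 without it. For Dhx58 and Zbp1 the lowest value of all 14 arrays also came from a sedentary array, number 7.

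The transcription factors that carry the interferon signal were 4 members, of which 0 passed. Stat2, a subunit of the complex that binds ISRE, gave signals of 867.7, 1036.5 and 2567.4 on the sedentary arrays and 607.9, 831.0 and 985.4 on the exercised arrays. Its difference was -0.56 ± 0.20 (SE; limma adjusted p = 0.12) and -0.39 ± 0.14 without sedentary array 5 (adjusted p = 0.124). All 7 exercised values lay below the sedentary median, and 5 lay below the lowest sedentary value. Irf9, the DNA-binding subunit of the same complex, differed by -0.28 (-0.16 without sedentary array 5). Irf7, which amplifies production of type I interferon, differed by -0.52 (unadjusted p = 0.0457), and by -0.33 without that array (unadjusted p = 0.0897). Irf1, an early target of interferon gamma, gave signals of 5209.2, 6797.7 and 16606.8 on the sedentary arrays and 5538.5, 6686.2 and 8158.6 on the exercised arrays. Its medians were close, and its difference of -0.19 became 0.00 ± 0.11 without sedentary array 5.

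The IFIT proteins bind viral RNA and block its translation, and Ifit3 came nearest to the threshold among them. Ifit3 signals were 2474.4, 3996.5 and 7704.6 on the sedentary arrays and 2107.7, 2576.3 and 3687.3 on the exercised arrays. The difference was -0.68 ± 0.20 (SE; limma adjusted p = 0.0664), 1.6-fold lower in the exercised group, and -0.53 ± 0.17 without sedentary array 5 (adjusted p = 0.0823). Every exercised value was below the sedentary median, 3 were below the lowest sedentary value, and 6 of the 7 lay between 2107.7 and 2633.3. Ifit2 differed by -0.63 (unadjusted p = 0.0276) and by -0.44 without sedentary array 5 (unadjusted p = 0.0536). Ifit1 differed by -0.50 (unadjusted p = 0.0609) and by -0.28 without it (unadjusted p = 0.105), and 0 of these 3 members passed after adjustment.

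The OAS proteins sense double-stranded RNA and, in the catalytic members, make the messenger that activates RNase L. All 5 tested members were lower on average and 0 passed, with differences from -0.70 to -0.36 and a median of -0.55. Oasl1, which also restrains translation of Irf7, gave 1144.7, 1225.7 and 3131.2 on the sedentary arrays and 674.5, 890.1 and 1377.8 on the exercised arrays. Its difference was -0.70 ± 0.22 (SE; limma adjusted p = 0.0778), and -0.53 ± 0.17 without sedentary array 5 (adjusted p = 0.0875). All but 1 of the exercised values, that of array 2, lay below the lowest sedentary value.

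Oasl2, an OAS-like protein, gave 1906.8, 2312.1 and 8279.5 on the sedentary arrays and 1463.3, 1776.2 and 2515.7 on the exercised arrays. The difference was -0.70 ± 0.27 (SE; adjusted p = 0.146) and -0.46 without sedentary array 5, which read 3.61-fold the median of the other sedentary arrays. Of the exercised values of Oasl2, 5 lay below the lowest sedentary one. Oas1a differed by -0.55 (unadjusted p = 0.0225), and by -0.38 without sedentary array 5 (unadjusted p = 0.0365). Oas3 differed by -0.50 and Oas2 by -0.36 (unadjusted p = 0.233 and 0.217), and without that array by -0.21 and -0.19. Oas3 varied most, from 196.6 to 2504.2 on the sedentary arrays and from 194.1 to 815.6 on the exercised arrays. OAS, IFIT and GBP genes have closely related copies, and how far probe sets respond to several of them was not tested.

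Other antiviral effectors had 4 tested members, and 0 passed. Mx1, a GTPase that blocks influenza viruses in mice with an intact gene, had the largest difference of all 34 members, -0.73 ± 0.31 (SE; limma adjusted p = 0.185), and -0.54 without sedentary array 5 (unadjusted p = 0.0332 and 0.0743). Its signals were 529.4, 1057.5 and 2496.2 on the sedentary arrays and 254.0, 710.2 and 1067.4 on the exercised arrays. Bst2 (tetherin), which holds budding viruses on the cell, gave 3246.5, 5114.4 and 9861.4 on the sedentary arrays and 2597.5, 3745.5 and 4173.7 on the exercised arrays. Both genes had wide sedentary ranges, but 5 of 7 sedentary values of Bst2 lay above its highest exercised value, and 3 did for Mx1. The difference of Bst2 was -0.55 ± 0.20 (SE; adjusted p = 0.118), and -0.39 without sedentary array 5. Eif2ak2, the kinase PKR, which stops translation on double-stranded RNA, differed by -0.50 ± 0.18 (adjusted p = 0.118), and Rsad2 (viperin) by -0.44 ± 0.21 (adjusted p = 0.237). They differed by -0.36 and -0.30 with that array left out. The other probe sets of Eif2ak2, at mean signals of 909.5 and 1049 beside 1076, gave smaller differences of -0.25 ± 0.13 and -0.22 ± 0.14 with all arrays. Those of Rsad2 gave -0.48 and -0.54.

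The ISG15 system attaches the ubiquitin-like Isg15 to proteins. Its remover Usp18, which also dampens signalling at the type I receptor, gave 1527.6, 2947.5 and 5245.5 on the sedentary arrays and 2044.9, 2292.1 and 2616.2 on the exercised arrays. All exercised values lay below the sedentary median, 5 sedentary values lay above the highest exercised one, and sedentary array 7 gave the lowest value of all. The difference was -0.36 ± 0.19 (SE; limma adjusted p = 0.285), and -0.22 without sedentary array 5. The ligase Trim25 differed by -0.17, and the ADP-ribosyltransferase family members Parp9 and Parp14 by -0.17 and -0.16. With sedentary array 5 left out, Trim25 and Parp9 differed by -0.09 and -0.07 and Parp14 by 0.00 ± 0.15 (unadjusted p = 0.992). The other probe sets of Trim25, at mean signals of 4613 and 989.3 beside 5118, gave -0.31 and -0.30 with all arrays and -0.19 and -0.09 without that array. A weaker probe set of Parp14, at a mean signal of 710.3 beside 3679, gave -0.39 ± 0.20 and -0.21 ± 0.13.

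Ifi35 gave signals of 10149, 12896 and 17068 (lowest, median and highest) on the sedentary arrays and 8664, 9932 and 12263 on the exercised arrays. Means were 13100 ± 2144 and 10060 ± 1097 (SD, n = 7 each). All 7 exercised values lay below the sedentary median and 5 below the lowest sedentary value, and exercised array 2 was the highest of its group. The difference was -0.37 ± 0.10 (SE; limma adjusted p = 0.0463), and without sedentary array 5 it was -0.30 ± 0.09 (adjusted p = 0.0542). Both other probe sets of Ifi35 gave lower exercised means as well when every probe set was tested by limma on its own. They differed by -0.41 ± 0.09 (adjusted p = 0.0171) and -0.49 ± 0.15 (adjusted p = 0.0715), and in that test the chosen probe set had an adjusted p of 0.0516. Without sedentary array 5 the same test gave -0.36 ± 0.08 (adjusted p = 0.0202) and -0.44 ± 0.15 (adjusted p = 0.114). The chosen probe set then had an adjusted p of 0.0609. Leaving out 1 array ended the call of Ifi35 for 12 of the 14 arrays, the exceptions being sedentary array 7 and exercised array 2. Its adjusted p over all 25 alternatives ran from 0.0107 to 0.0986.

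**Figure D2:**
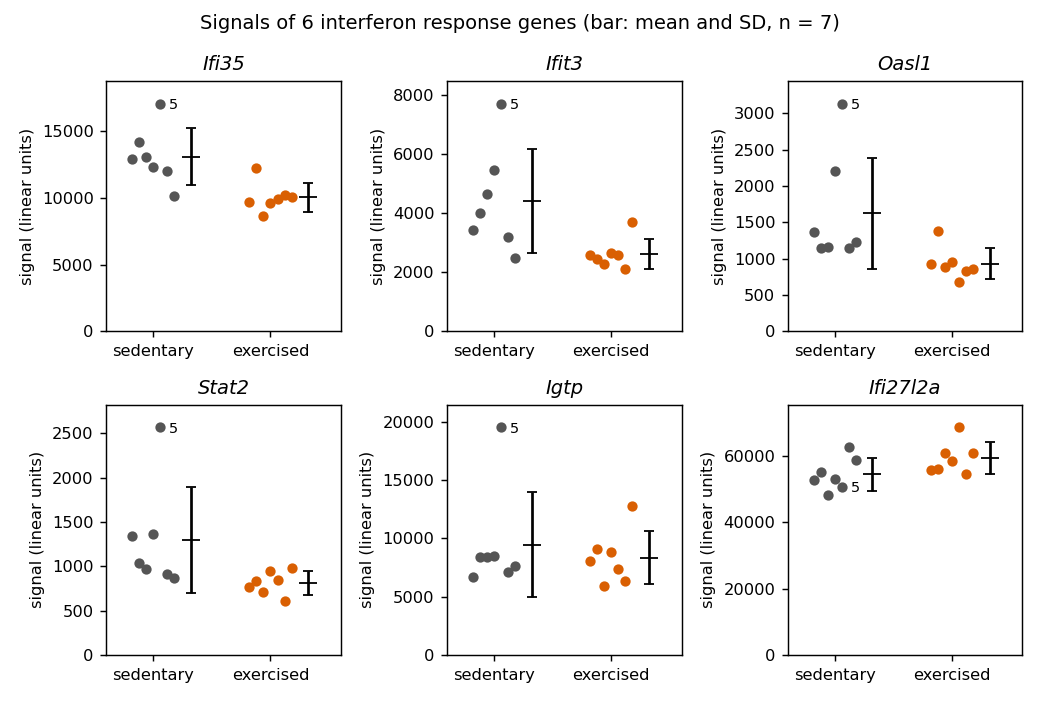
Signal (linear units, vertical axis from 0) of 6 interferon response genes on each of the 7 sedentary (grey) and 7 exercised (orange) arrays, with the mean and SD beside each group; the point marked 5 is sedentary replicate 5. That replicate is the highest of all arrays in Ifi35, Ifit3, Oasl1, Stat2 and Igtp and the second lowest of all in Ifi27l2a, and the groups overlap in each panel.

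Of the other induced genes, Xaf1, a promoter of apoptosis, differed by -0.38 ± 0.13 (SE; limma adjusted p = 0.0989), and Rtp4, a chaperone of receptors, by -0.47 ± 0.19 (adjusted p = 0.154), beside -0.29 and -0.34 without sedentary array 5. For both genes all 7 exercised values lay below the sedentary median. A weaker probe set of Xaf1, at a mean signal of 423.3 beside 4460, gave -0.02 ± 0.17 with all arrays. Ifi27l2a, a small hydrophobic protein of the Ifi27 family, was the 1 member with the opposite sign. It gave 48364, 53235 and 62840 on the sedentary arrays and 54542, 58660 and 68702 on the exercised arrays, a difference of 0.12 ± 0.07 (SE; adjusted p = 0.32). None of its 7 exercised values lay below the sedentary median, and sedentary array 5, at 50733, was 0.936-fold the median of the other sedentary arrays. The highest signal of any probe set on these arrays was 112160, and whether the Ifi27l2a probes were near saturation was not tested.

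Among the 7 interferon gamma targets, 0 passed the test, and their differences ran from -0.38 to -0.12 with a median of -0.29. Gbp3, a guanylate-binding GTPase that acts against microbes inside cells, gave 3893.5, 4676.0 and 9017.0 on the sedentary arrays and 3232.1, 3785.0 and 4550.6 on the exercised arrays. It was the 1 gamma target at an unadjusted p under 0.05, with -0.38 ± 0.16 (SE; limma adjusted p = 0.173), and -0.24 ± 0.10 without sedentary array 5. All exercised values of Gbp3 lay below the sedentary median. Gbp2, of the same family, differed by -0.36 (-0.19 without that array), and 5 exercised values lay below its lowest sedentary value.

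The immunity-related GTPases Igtp, Irgm1 and Iigp1, of a family that acts against intracellular parasites, had medians that were close in both groups. Igtp gave 6658.6, 8379.4 and 19533 on the sedentary arrays and 5918.3, 8034.8 and 12828 on the exercised arrays, a difference of -0.12 ± 0.22 (SE) that was 0.07 ± 0.15 without sedentary array 5. Iigp1 gave 9804.2, 10982 and 35403 on the sedentary arrays and 6645.4, 10356 and 19829 on the exercised arrays, a difference of -0.29 that was -0.06 without that array. In both genes a single sedentary value stood above every exercised value, that of array 5. Irgm1, a regulator of this family, differed by -0.25 and -0.11. Tap1, which carries peptides to class I molecules, differed by -0.30 ± 0.19 (SE; adjusted p = 0.375) and by -0.15 without the array.

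Type I and interferon gamma targets were then set side by side. Over the 27 type I targets the median difference was -0.50 (range -0.73 to 0.12), 26 were below 0, 13 had an unadjusted p under 0.05 and 1 passed after adjustment. Over the 7 gamma targets the median was -0.29, all were below 0, 1 had an unadjusted p under 0.05 and 0 passed. Without sedentary array 5 the medians were -0.30 and -0.11, with 26 of 27 type I and 5 of 7 gamma targets below 0, and 10 and 1 at an unadjusted p under 0.05. Those 10 included Stat2, Ifit3, Oasl1, Oasl2, Bst2, Eif2ak2 and Ifi35. High unadjusted p of chosen probe sets occurred in both sets. They were 0.992 for Parp14, 0.59 for Ifih1 and 0.536 for Oas3 among type I targets. Among gamma targets they were 0.992 for Irf1, 0.791 for Iigp1 and 0.66 for Igtp. Whether the type I and gamma targets differed in their response was not tested.

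On each array the median of each set was taken relative to every gene's sedentary median. Sedentary array 5 read 0.97 for the type I targets and 1.22 for the gamma targets. The next highest array for type I targets was sedentary array 4, at 0.38, with 0.08 for the gamma targets. The other 5 sedentary arrays lay between -0.34 and 0.00 for type I targets and between -0.11 and 0.02 for gamma targets. Exercised arrays lay between -0.48 and -0.10 for type I targets and between -0.39 and 0.03 for gamma targets.

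Group means of these medians for type I targets were 0.13 ± 0.43 on sedentary and -0.29 ± 0.16 on exercised arrays (SD, n = 7 each), and for gamma targets 0.15 ± 0.48 and -0.15 ± 0.15. Without sedentary array 5 the sedentary means were -0.01 ± 0.23 and -0.03 ± 0.07 (n = 6). Type I exceeded gamma medians most on sedentary array 4, by 0.30, and fell short of them most on exercised array 4, by -0.27, and on sedentary array 5, by -0.25. Within an array this difference was -0.02 ± 0.20 over the sedentary and -0.13 ± 0.08 over the exercised arrays, so that it overlapped between the groups.

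**Figure D3:**
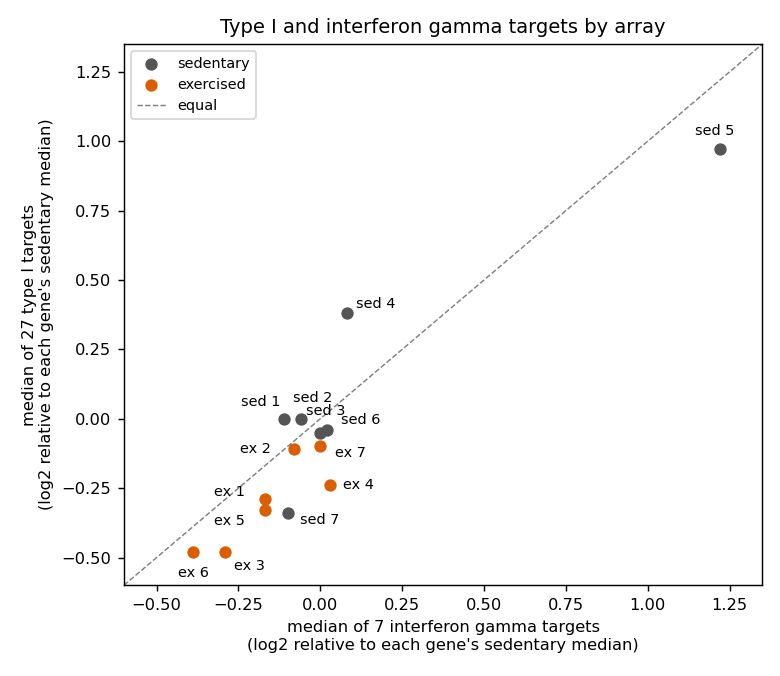
Median of the 27 type I targets (vertical axis) against the median of the 7 interferon gamma targets (horizontal axis) on each array, both as log2 relative to each gene's sedentary median; grey points are sedentary, orange exercised, and the dashed line marks equal values. Sedentary array 5 lies apart at 1.22 and 0.97, sedentary array 4 lies above the line, and exercised arrays 3 and 6 are lowest at -0.48.

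Sedentary array 5 was the highest of all 14 arrays for 33 of the 34 members, against 23.1% of all genes tested, and Ifi27l2a was the exception. Its signal was 2.09-fold the median of the other 6 sedentary arrays in the median member, and ran from 0.936-fold for Ifi27l2a to 3.86-fold for Oas3. Sedentary array 4 was second highest for 22 members. Low values were spread over more arrays, with exercised arrays 3 and 6 lowest for 9 members each, and sedentary array 7 and exercised array 5 for 6 each. Sedentary array 7 lay below its own group's median for 27 of the 34 members, so the sedentary group held both the highest array and an array as low as the exercised ones. When sedentary array 7 was left out and sedentary array 5 was kept, 6 members fell in limma, beside 2.02% of all genes. They were Bst2, Dhx58, Eif2ak2, Ifi35, Ifit3 and Usp18, each read from its chosen probe set. Without both arrays 5 members fell, beside 1.89%.

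**Figure D4:**
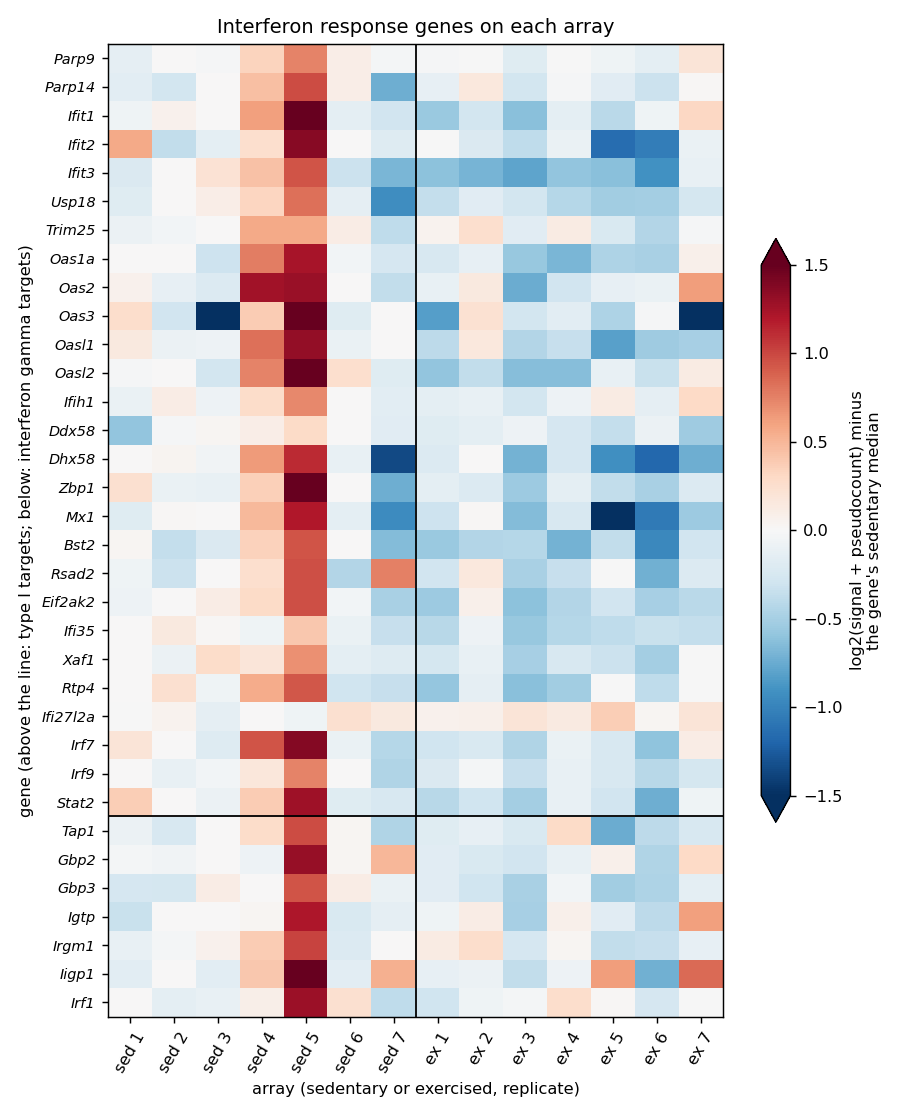
Log2(signal + pseudocount) of each tested interferon response gene minus that gene's median over the sedentary arrays, with genes in rows and the 14 arrays in columns; colour runs from low to high as the scale shows. The column of sedentary array 5 is the highest for 33 of 34 genes, and sedentary array 7 lies below the sedentary median for 27.

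Other genes of the pathway were read from lists of their own. Of 16 ligands, receptors and kinases 11 were tested, and 0 passed in limma in either direction, while 10 differences were below 0, 1 gene was lower at an unadjusted p under 0.05, and the median was -0.18 (-0.11 without sedentary array 5). The smallest p belonged to Il10rb, the shared receptor chain of lambda interferons and interleukin 10, with means of 6756 ± 921.6 and 5806 ± 469.4 (SD, n = 7 each) and a difference of -0.21 ± 0.09 (SE; adjusted p = 0.178). Ifnar1 followed with -0.18 ± 0.09 (adjusted p = 0.253), and without sedentary array 5 they differed by -0.16 and -0.13. Ifng itself lay below the filter, with a sedentary mean of 192.9 and 445.1 on sedentary array 5.

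Of 14 sensors and signalling proteins upstream of interferon genes 12 were tested, and 0 passed in limma with all arrays, at a median of -0.29 (-0.12 without sedentary array 5) and with 11 differences below 0. At an unadjusted p under 0.05, 2 were lower and 1 higher. That higher gene was Mavs, the mitochondrial adaptor of Ifih1 and Ddx58, at 3592 ± 611.2 on the sedentary and 4807 ± 608.0 on the exercised arrays (SD, n = 7 each). Its difference was 0.43 ± 0.12 (SE; adjusted p = 0.0516), and without sedentary array 5, on which it read 2288.8, it rose by 0.33 ± 0.08 (adjusted p = 0.0332). Mavs thus had the sign opposite to its sensors, whose own differences did not pass. Tlr3, the endosomal receptor for double-stranded RNA, had -0.36 ± 0.12 (adjusted p = 0.0974), and -0.29 without that array.

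Of 31 further interferon-induced genes 28 were tested. The 1 that passed was Lgals3bp, a secreted glycoprotein that binds galectins, which fell by 0.37 ± 0.10 on the log2 scale (adjusted p = 0.048, limma), from 18200 ± 2915 to 14020 ± 1569 (SD, n = 7 each). Without sedentary array 5 its difference was -0.31 ± 0.09 (adjusted p = 0.0631), and 0 of the 28 passed. At an unadjusted p under 0.05, 8 were lower with all arrays and 7 without that array, 0 were higher in either, and the median was -0.35 and -0.21. The chemokine Cxcl10, singled out after its values were seen, read 20533 on sedentary array 5 and at most 1351 on the other sedentary arrays, so that its difference of -1.18 ± 0.63 (adjusted p = 0.286) became -0.53 ± 0.26.

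Summed markers of several immune cell types were highest on sedentary array 5, whereas those of muscle, endothelium and adipocytes were not. The summed signal of 10 macrophage markers, all measured and above the filter, ran from 94330 to 143000 on the sedentary arrays and from 88230 to 115100 on the exercised arrays. Its highest arrays were sedentary 5, at 143000, and sedentary 4, at 136200, which were also the highest arrays for the type I targets. On sedentary array 5, Csf1r and Cd163 read 19678.9 and 5616.3, below their sedentary means of 21120 and 7259, whereas the other markers of the list read above theirs. Of these 10 markers Tyrobp, an adaptor of myeloid receptors, fell by 0.52 ± 0.15 (SE; limma adjusted p = 0.0482) and by 0.40 ± 0.10 without sedentary array 5 (adjusted p = 0.0292), and the other 9 did not pass with all arrays.

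Plasmacytoid dendritic cells, the main makers of type I interferon, were read from 4 of 5 markers, which summed to 3133 to 11170 on the sedentary and 3146 to 9518 on the exercised arrays. For T cells, 7 of 8 markers summed to 1649 to 23530 and 1500 to 17790. For B cells, 5 of 6 markers summed to 2199 to 68140 and 2224 to 33050. In each of these sums sedentary array 5 was the highest of all, and the 3 lowest arrays were sedentary 7, exercised 5 and exercised 7. Of the plasmacytoid dendritic sum on sedentary array 5, Ly6d gave 7766.6. Siglech and Klk1 read 1175.6 and 1218.3 there, below their sedentary means of 1409 and 1899, whereas Ccr9 read 1006.3, above its sedentary mean of 803.

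Natural killer markers (4 of 5 measured) summed to 3837 to 7053 and 3259 to 6158. Neutrophil markers (3 of 5) summed to 1558 to 60280 and 843.8 to 4361, and the highest sedentary sum without array 5 was 13290. Sedentary array 5 again had the highest sum in both lists. Prf1 of the natural killer list read 999.1 there, below its sedentary mean of 1099, and the other markers of that list read above theirs. This array had the lowest sum for the 4 endothelial markers, at 11920, and for the adipocyte markers, at 171300. Among the adipocyte markers the glucose transporter Slc2a4 rose by 0.77 ± 0.21 (SE; limma adjusted p = 0.0467; 0.57 and 0.013 without that array). The adipokine Lep differed by -1.41 ± 0.48 (adjusted p = 0.105) and fell by 1.86 without it (adjusted p = 0.00319). All 9 skeletal muscle markers were measured, and their sums had a median of 8958 on the sedentary arrays (3151 to 214600) and 275000 on the exercised arrays (3933 to 469400). Each of the 9 had a higher mean log2 signal in the exercised group, with a median log2 difference of 2.93, 5 at an unadjusted p under 0.05 and 0 past the adjusted threshold. Muscle sums were 8958 on sedentary array 5 and 3151 on sedentary array 4. On exercised arrays 6 and 3 they were 469400 and 465300, with type I medians of -0.48 on both. Exercised arrays 2 and 7 had sums of 342900 and 275000 and the highest type I medians of their group, -0.11 and -0.10. Exercised arrays 5, 1 and 4 had sums of 73520, 5565 and 3933, with type I medians of -0.33, -0.29 and -0.24. Every marker measured in these lists was above the filter, and the part of any of these cell types in the interferon response genes was not tested.

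**Figure D5:**
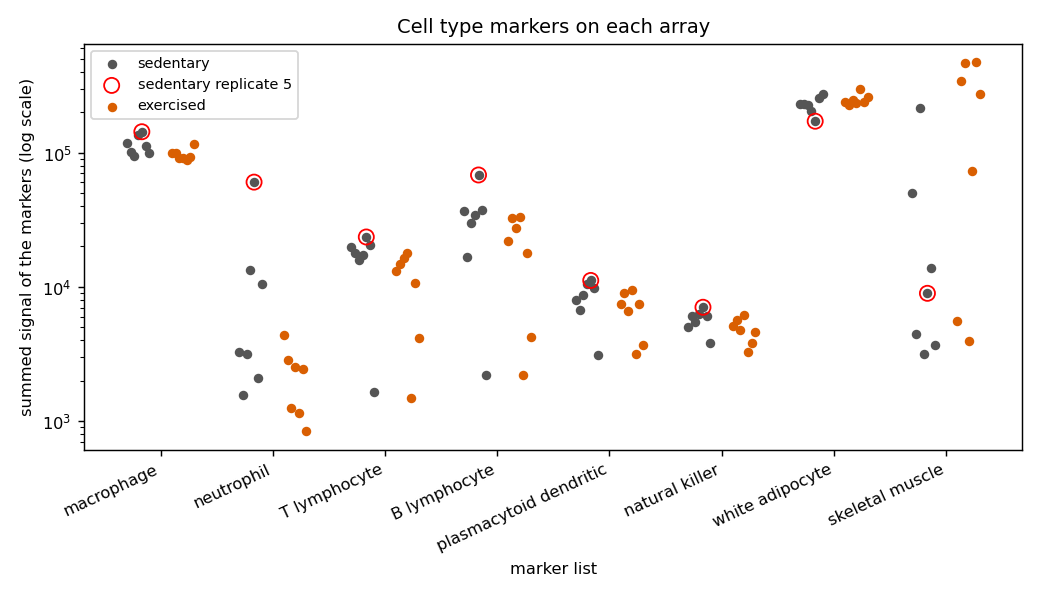
Summed signal of the cell type marker lists other than endothelium (log axis) on each sedentary (grey) and exercised (orange) array, with sedentary replicate 5 marked. That replicate is the highest array for the macrophage, plasmacytoid dendritic, T, B, natural killer and neutrophil lists and the lowest for the white adipocyte list.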

How the data were processed

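RNA of 14 samples was hybridised to Affymetrix arrays. The authors deposited linear intensity values, 1 signal for each of 45101 probe sets, which came from MAS5 per the submitters' processing notes. The sources used here give no version or settings of it. Every array had a mean of 1500 once 2% of values at each end were trimmed, so a difference in total RNA per cell is removed. Array medians ran from 531.3 to 617.4, and the number of arrays limits the precision. The ratio of 3′ to 5′ signal of Gapdh was 0.694 to 0.796 on sedentary and 0.71 to 0.788 on exercised arrays.

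Groups came from the label of each sample. Gene symbols came from the platform annotation (34945 probe sets with 1 symbol, 932 with several, 9160 with none) and were updated to the RefSeq table of GRCm38.p6, which matched 34741. Values were transformed as log2(signal + 46.7), the 10th percentile of all values. Probe sets with a mean under 389.8 (the 40th percentile) and 64 control probe sets were left out, and each gene kept its probe set with the highest mean. The test was limma 3.58.1 (R 4.3.3; two-sided, variance trend), with Benjamini-Hochberg adjustment over all 12944 genes. Code was tested on simulated data.

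All members are named. Of 3 pathway lists, genes past the threshold are named, or else the 2 with the smallest p. The members, lists and tests were chosen with earlier results of these data known. Alternatives were quantile normalisation, median centring, array weights, a block for the replicate number, other pseudocounts, filters and choices of probe sets, a fit with no variance trend, and leaving out each array.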

Additional observations from a re-analysis of the deposited data

Results flagged for a closer look

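Within a group of 7 arrays, a highest or lowest value was noted when its gap to the nearest other value, as a share of the group's range, was above 0.568. This held for 8 of the 72 sets of values examined, where chance gives about 5% of independent sets. These sets share the same arrays, and some are medians over the same genes, so they are not independent. Sedentary array 5 had also been singled out with earlier results known, so the count cannot show an excess over chance. In 7 of the 8 the value was the sedentary group's highest, on array 5. The gap was 0.59 for Stat2, 0.62 for Irf1, 0.59 for Gbp2, 0.69 for Gbp3, 0.77 for Igtp and 0.62 for Iigp1, and 0.86 for the median over the interferon gamma targets. The remaining value was Ifit3 on exercised array 7, at a linear signal of 3687.3 beside 2633.3 on the next array, with a gap of 0.60 on the log2 scale. Sedentary array 5 also had the highest sums of the immune cell marker lists, whose part in its values was not tested. Exercised array 7 was among the 3 lowest arrays for T, B and plasmacytoid dendritic markers.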

How the results depend on the processing

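With all 14 arrays the number of members lower after exercise, 1 as reported, was 0 with median centring (beside 0.664% of all genes lower), with no filter on low signal (0.830%) and with no variance trend (1.33%). It was also 0 with all probe sets tested, counting each gene's chosen probe set, beside 1.22% of all probe sets lower. In that fit 1 other probe set, of Ifi35, passed. The number of members lower was 3 with array weights (Eif2ak2, Ifi35 and Ifit3), beside 3.07% of all genes lower in that fit, which also moved the median difference of the gamma targets to -0.09. Without sedentary array 5 the count of 0 became 1 with quantile normalisation (beside 1.96% of all genes lower), with the filter at the 60th percentile (2.42%) and with the mean of all probe sets (1.80%). It became 3 with array weights (beside 3.21% of all genes). Leaving out each array in turn gave 0 to 6 members with all arrays and 0 to 5 without sedentary array 5, the highest in both without sedentary array 7. Of all genes, 0.610% to 2.02% and 0.927% to 1.89% were lower in these fits. The median difference then ran from -0.56 to -0.30 for type I and from -0.34 to -0.11 for gamma targets, and the number of genes called from 402 to 853 (716 with all arrays) and from 462 to 799 without sedentary array 5 (718 with no further array left out). Over all alternatives 31 to 34 members had differences below 0, and 27 to 33 without that array. The number tested changed with the filter. With all arrays, 31 of 32 were below 0 with the filter at the 60th percentile, and 34 of 35 with no filter on low signal. The cause of these shifts was not tested.

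With the replicate number as a block, 0 members were lower, and 161 genes were called with all arrays and 379 without sedentary array 5. Same-numbered arrays correlated by -0.425 to 0.381 in their deviations from the group means, and 1 of 7 correlated best with its own number, so the numbers were not taken as pairs.

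Signs turned for genes near 0. With all arrays Igtp was 0.01 with array weights, and leaving out single arrays gave -0.23 to 0.07 for Igtp and -0.28 to 0.00 for Irf1. Without sedentary array 5, Irf1 was -0.01 with quantile normalisation, -0.02 with array weights and -0.01 with the block, Parp14 was 0.04 with median centring and 0.01 with the block, and Oas3 was 0.00 with array weights. Leaving out a further array then gave -0.06 to 0.06 for Irf1, -0.13 to 0.11 for Parp14, -0.20 to 0.06 for Iigp1, -0.31 to 0.04 for Oas2, -0.17 to 0.02 for Trim25 and -0.04 to 0.14 for Igtp.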

Other observations

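Some gamma targets ranked the arrays differently from the rest of the list. After sedentary array 5, the highest Iigp1 signals were on exercised array 7 (19829), exercised array 5 (17042) and sedentary array 7 (15967), and the highest Gbp2 signals were on sedentary array 7 (10791), exercised array 7 (9448.8) and exercised array 5 (8037.6). These 3 arrays had the lowest summed T, B and plasmacytoid dendritic markers of all 14, whereas sedentary array 5 had the highest. Most other gamma targets did not share this ranking. Exercised array 5 was the lowest of all 14 for Gbp3 (3232.1), Irgm1 (3631.1) and Tap1 (2527.5), and sedentary array 7 for Irf1 (5209.2). For Igtp exercised array 7 was second highest (12828). The pattern of Iigp1 and Gbp2 was seen in the data, rests on 3 arrays and was not tested.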
